A study of Homo sapiens with 30 samples.

Results

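The regions described here are the stretches of open chromatin around 10 genes of the NODAL and BMP signalling pathways: the ligands NODAL, BMP4 and BMP7, the inhibitors LEFTY1, LEFTY2 and SMAD7, and the response genes ID1, ID2, ID3 and ID4. The genes were chosen by name. A region belonged to a gene when it overlapped the GRCh38 gene body extended by 50 kb on each side, whatever gene it may act on. Peaks of the 10 deposited lists were merged into 493444 regions where they overlapped, and 302 of these lay in the 10 windows. A region is called open in a list when the list has at least 1 peak there and closed when it has none, so closed means only that no peak was listed.

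Chromatin was profiled by OmniATAC-seq, a transposase assay that cuts accessible DNA, in H1 cells, an established line of human pluripotent stem cells with the genotype given as wild-type. The labels give 10 groups of 3 biological replicates, with 50000 cells per library, and 1 peak list per group. All libraries are thus from a single line. The question addressed by the design is how chromatin differs between an anterior and a posterior route from pluripotent cells to brain progenitors.

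The group hPSC is the undifferentiated cells on day 0. The group DE, named definitive ectoderm in the labels, was collected on day 1 after 24 hours in CDM2 medium with A8301 at 1.0 µM, LDN193189 at 100 nM, trametinib at 250 nM and C59 at 1.0 µM. The groups aNE and pNE, anterior and posterior neural ectoderm, were collected on day 2 after replating. The aNE medium held A8301, LDN193189 and C59 at the doses of day 1, and the pNE medium held A8301 and LDN193189 at those doses with TTNPB at 50 nM, FGF2 at 20 ng/mL and XAV939 at 1.0 µM. Both day 2 media held the survival agent thiazovivin. The 6 groups of day 4 had passed through aNE (aNE_T, aNE_M, aNE_H) or pNE (pNE_T, pNE_M, pNE_H) and then through telencephalon, midbrain or hindbrain media, whose full composition is not used here. Day 4 values of a route are given below in that order (T, M, H). Every group after hPSC had therefore been exposed to A8301 and LDN193189, and no group was left to differentiate without them.

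NODAL is a secreted ligand of the TGF-β family that acts through activin receptors and the CRIPTO co-receptor on SMAD2 and SMAD3, and it helps to hold human pluripotent cells in their state. LEFTY1 and LEFTY2 are secreted antagonists of NODAL and are themselves induced by it. BMP ligands act through other receptors on SMAD1, SMAD5 and SMAD9, and the ID genes, which encode helix-loop-helix proteins without a DNA-binding region, are among their best known direct targets. SMAD7 is an inhibitory SMAD induced by both arms. A8301 blocks the type I receptors for activin, NODAL and TGF-β, and LDN193189 blocks those for BMP; trametinib inhibits MEK, C59 blocks the release of WNT ligands, TTNPB activates retinoic acid receptors and XAV939 lowers WNT signalling through β-catenin.

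Upstream sequences of 6 starts are shown for the contrast found at gene starts. The starts of NODAL, ID1, ID3 and ID4 lay inside peaks in every list, whereas 1 start each of SMAD7 and BMP4 lay inside peaks of pNE-derived day 4 lists alone. The ID2 start also lay inside a peak in every list, but the letters TATAA were not found before it and its sequence is not shown. The sequences are the 250 bases before the start, 5′ to 3′ on the gene's strand, from the RefSeq promoter table for GRCh38.p14. In the first 4, capitals mark the letters TATAA nearest the start. They are NODAL (chr10:70441682-70441931, minus strand), ID1 (chr20:31605039-31605288, plus strand), ID3 (chr1:23559502-23559751, minus strand) and ID4 (chr6:19837120-19837369, plus strand).
NODAL: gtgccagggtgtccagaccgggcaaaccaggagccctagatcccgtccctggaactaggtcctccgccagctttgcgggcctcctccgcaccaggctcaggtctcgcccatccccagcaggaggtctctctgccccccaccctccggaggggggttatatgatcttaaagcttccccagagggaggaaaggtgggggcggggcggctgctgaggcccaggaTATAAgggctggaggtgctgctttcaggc
ID1: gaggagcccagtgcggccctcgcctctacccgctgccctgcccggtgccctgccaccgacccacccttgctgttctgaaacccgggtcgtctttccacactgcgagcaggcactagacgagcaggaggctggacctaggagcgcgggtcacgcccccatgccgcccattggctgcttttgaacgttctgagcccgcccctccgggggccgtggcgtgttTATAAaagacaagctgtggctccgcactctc
ID3: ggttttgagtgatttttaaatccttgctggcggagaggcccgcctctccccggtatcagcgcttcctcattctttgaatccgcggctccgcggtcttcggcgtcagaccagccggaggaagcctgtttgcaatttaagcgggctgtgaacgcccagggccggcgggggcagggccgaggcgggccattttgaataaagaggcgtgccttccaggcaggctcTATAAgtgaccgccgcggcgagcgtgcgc
ID4: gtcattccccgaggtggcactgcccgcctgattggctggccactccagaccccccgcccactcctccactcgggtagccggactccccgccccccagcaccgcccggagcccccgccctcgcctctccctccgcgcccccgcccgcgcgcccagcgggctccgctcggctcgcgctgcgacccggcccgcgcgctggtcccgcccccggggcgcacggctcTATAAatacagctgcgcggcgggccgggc
In the other two, capitals mark the bases inside a peak of at least 1 pNE-derived day 4 list. They lie before the SMAD7 start at 48942807 (chr18:48942808-48943057, minus strand; 115 bases in capitals) and before the BMP4 start at 53955050 (chr14:53955051-53955300, minus strand; 215 bases in capitals), both inside the annotated gene.
SMAD7: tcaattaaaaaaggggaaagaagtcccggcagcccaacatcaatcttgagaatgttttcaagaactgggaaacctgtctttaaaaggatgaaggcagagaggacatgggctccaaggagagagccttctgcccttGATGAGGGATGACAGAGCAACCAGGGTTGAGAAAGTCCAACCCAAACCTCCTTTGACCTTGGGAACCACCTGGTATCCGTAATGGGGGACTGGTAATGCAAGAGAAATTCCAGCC
BMP4: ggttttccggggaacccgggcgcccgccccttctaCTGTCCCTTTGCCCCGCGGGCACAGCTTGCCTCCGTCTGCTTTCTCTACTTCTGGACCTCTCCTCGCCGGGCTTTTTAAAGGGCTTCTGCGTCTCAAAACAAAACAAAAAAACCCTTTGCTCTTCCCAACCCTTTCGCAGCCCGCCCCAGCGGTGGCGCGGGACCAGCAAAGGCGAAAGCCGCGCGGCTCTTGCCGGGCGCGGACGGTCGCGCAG

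The peak lists held between 167792 (aNE) and 313095 (pNE_H) peaks on chromosomes 1 to 22, X and Y, covering 75.5 to 129 Mb. The pNE_H list was the longest, ahead of DE with 247642 peaks, so counts of regions open in it or in it alone are read beside that length. The depth of the libraries is unknown because the lists hold positions and no counts, scores or values per library. No comparison between lists can therefore be tested against the spread between replicates, and the exact binomial intervals below cover counting error only. Peaks within 1 kb of the ends of POU5F1, the pluripotency factor OCT4, were listed in hPSC and DE and in no later list. A peak at the start of HOXB1, a hindbrain gene, was absent from the 3 aNE-derived day 4 lists and present in the other 7. Peaks at the chosen mesoderm, endoderm and non-neural ectoderm genes were present in every list, hPSC included, so a peak at a start did not tell these classes apart. In bulk cultures, fewer cells with an open region and less opening per cell cannot be told apart.

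Chromatin around the 10 genes was more often open in pluripotent cells than the genome's regions as a whole, and most of it was still open a day after NODAL and BMP receptors were blocked. Of the 302 regions, 165 were open in hPSC (54.6%, against 40.6% of all merged regions). Of these 165, 84 (50.9%, exact 95% interval 43.0 to 58.8) were open in all 10 lists, where the share over all hPSC-open regions was 40.8%. Only 22 (13.3%, interval 8.55 to 19.5) had no peak in DE, where the background was 21.8%. Both intervals lay to one side of the value over all regions. Taken per gene window, the median share open in all 10 lists was 57.8% over the 10 genes and 47.1% over protein-coding genes. For the share closed in DE the medians were 11.3% and 18.2%. Both medians over protein-coding genes lay inside the intervals above, which are for the pooled regions and not for medians of genes. The share open in hPSC was set against all merged regions only. Whether it is also higher in the windows of other genes was not tested. The regions are not independent replicates, however, and no test was made. Regions open in all 10 lists were wide, with a median merged width of 905 bp, and the other hPSC-open regions had a median of 418 bp.

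**Figure D1:**
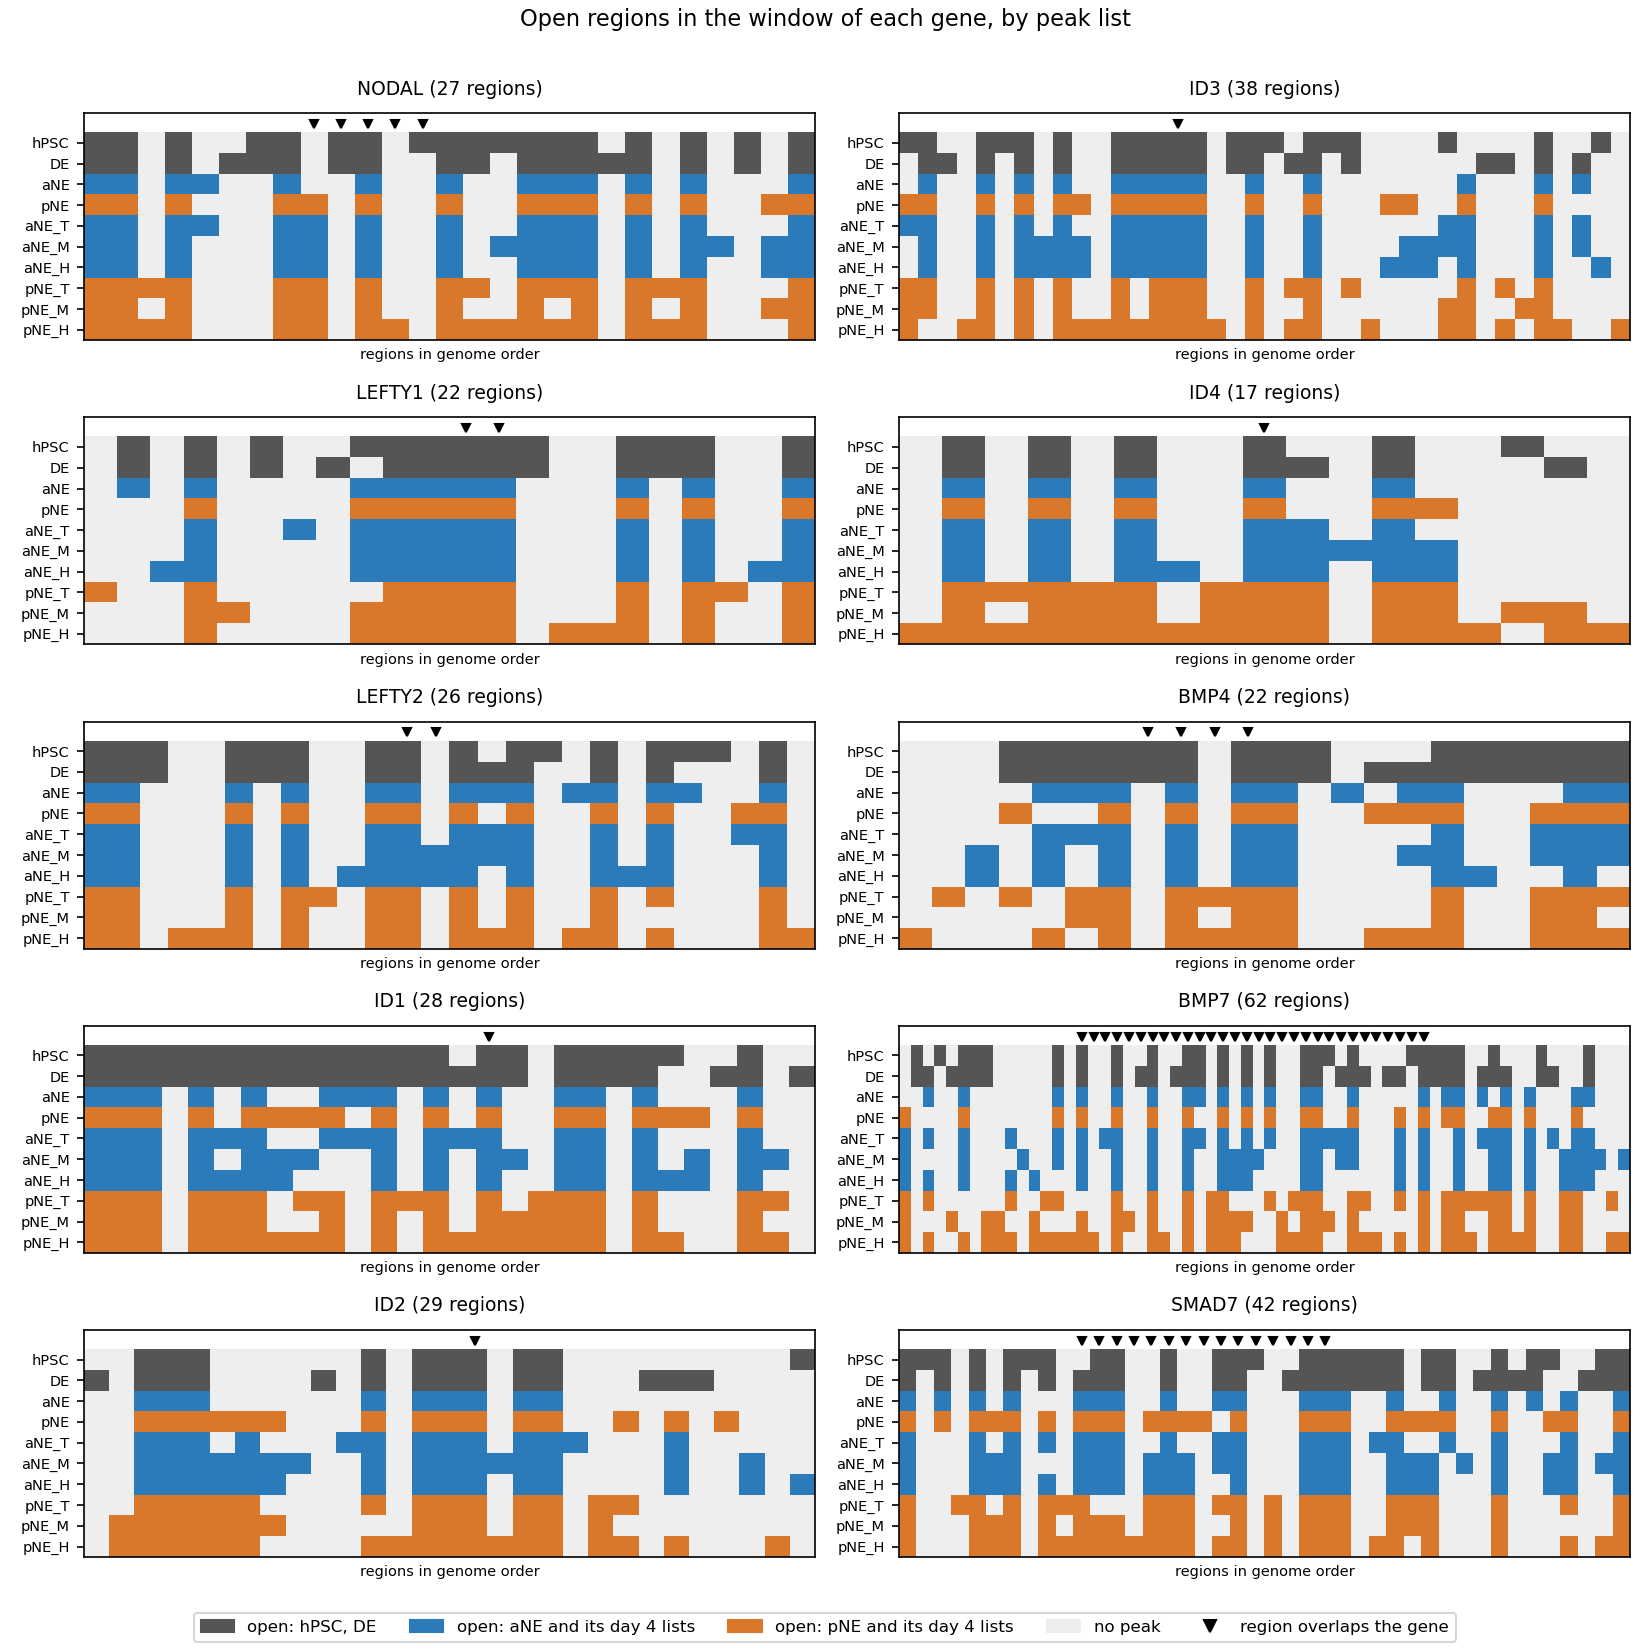
Each panel is the window of 1 gene, with the 10 peak lists in rows and the merged regions in genome order in columns; a filled cell marks a list with a peak and a triangle marks a region that overlaps the gene. Full columns are the regions open in all 10 lists, 84 of the 302 distinct regions, and isolated cells in the last row are regions open in pNE_H alone, 22 of the 75 regions open in a single list.

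On day 2 the losses were larger and similar in the anterior and posterior groups. No peak was listed in aNE at 53 of the 165 regions (32.1%, interval 25.1 to 39.8; background 38.9%) and in pNE at 52 (31.5%, interval 24.5 to 39.2; background 35.1%). At 43 regions (26.1%) both day 2 lists lacked a peak, with a background of 29.0%. Most regions closed in one day 2 group were thus closed in the other too. The intervals of the aNE and pNE shares overlapped almost fully, but they leave out that both shares are of the same 165 regions. The step from DE to day 2 was smaller with all lists at the length of the shortest, that of aNE. The closed shares were then 17.6% in DE, 23.5% in aNE and 25.7% in pNE, with backgrounds of 27.1%, 29.7% and 33.4%. On day 4 the share of the 165 regions that was open ranged from 63.6% in pNE_M to 70.3% in pNE_H, and the share over all hPSC-open regions ranged from 57.2% in pNE_M to 67.8% in pNE_H.

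The order of loss can be read from the full pattern over the lists. Only 11 regions (6.67%, interval 3.37 to 11.6; background 11.4%) were open in hPSC and in no other list, and they were narrow, with a median of 128 bp. Another 11 were closed in DE but had a peak in some later list (background 10.4%). A further 17 (10.3%, interval 6.12 to 16.0; background 6.83%) were open in hPSC and DE and in no list after day 1, with a median width of 251 bp. A set of 9 was open in DE, closed in both day 2 lists and open again on day 4 (background 5.78%). On day 2, 8 regions open in DE kept a peak in aNE and not pNE (background 5.31%) and 7 in pNE and not aNE (background 6.70%). A further 18 were open in DE, aNE and pNE and lacked a peak in at least 1 day 4 list (background 12.8%). Only 1 of these was closed in all 6 day 4 lists. Together, 28 regions (17.0%; background 18.2%) had no peak in any list after day 1. The 2 intervals given here contained their background values, so these shares did not stand apart from those of hPSC-open regions in general. Among the wider 50% of the peaks of each list the share open in hPSC and DE alone was 4.95%, below the share over all regions.

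**Figure D2:**
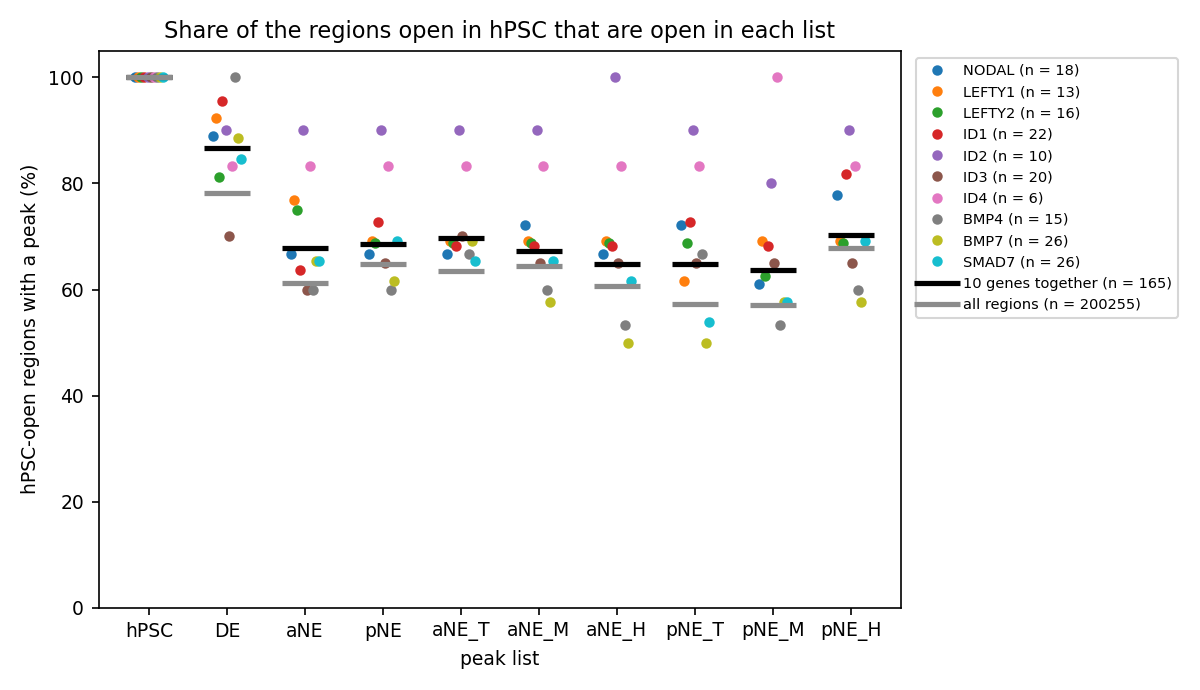
Share, in percent, of the regions open in hPSC that had a peak in each list; points are genes with their number of hPSC-open regions, black bars are the 10 genes together and grey bars are all hPSC-open regions. The 10 genes together stood at 86.7% in DE, 67.9% in aNE and 68.5% in pNE, above the 78.2%, 61.1% and 64.9% of all regions.

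Among the ligands, NODAL had 27 regions, 18 of them open in hPSC. The gene lies at chr10:70431936-70447951, and its start at 70441681 lay inside a 2576 bp region, chr10:70440258-70442833, open in all 10 lists. Peaks within 1 kb of that start covered 1749 bp in hPSC, 1852 in DE, 1696 in aNE and 1606 in pNE. The day 4 lists had 1794, 1615 and 1502 bp after aNE and 1535, 1323 and 1654 bp after pNE. The start of NODAL thus stayed widely covered by peaks through 4 days, including those with the receptor inhibitor.

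Loss around NODAL was distal or intragenic. In DE 16 of the 18 regions kept a peak, and in each of aNE and pNE 12 did, the same 6 being closed in both. The widest region open in hPSC and DE alone was chr10:70488999-70489569, 571 bp inside the neighbouring gene PALD1 and 41.0 kb from NODAL, with 511 bp of peaks in hPSC and 443 in DE. Another, chr10:70437846-70438014, lay inside NODAL with 158 and 161 bp. The single region open in hPSC alone, chr10:70447350-70447471 (122 bp), also lay inside the annotated gene. It was upstream of the listed start, within 1 kb of the gene's higher end. The widest region closed in DE, chr10:70456247-70456469, had 204 bp in hPSC and a peak again in aNE_M (168 bp) and pNE_H (198 bp).

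NODAL gained 2 regions on day 2 in pNE and not aNE, and 1 in aNE and not pNE. The widest, chr10:70490699-70491338 inside PALD1, had 558 bp of peaks in pNE and, on day 4, 360 bp in aNE_M, 592 in aNE_H and 126 in pNE_M, with none in the other lists. The other pNE gain, chr10:70431951-70432507, at the far end of the gene from its start, had no peak in hPSC, DE or aNE. It held 274 bp of peaks in pNE, 483, 394 and 316 bp in the day 4 lists after aNE, and 424, 392 and 540 bp in those after pNE. The second was thus open in all 6 lists on day 4 whichever route had been taken, and the first in 3 of them.

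At BMP4 the lists of hPSC and DE were alike and those of day 2 had fewer regions. All 15 of its hPSC-open regions, of 22 in the window, had a peak in DE, and 9 had one in each of aNE and pNE. The counts depended on the setting: with all lists at the length of the shortest, 3 of 12 hPSC-open regions were closed in DE and 3 in both day 2 lists, and the number closed in DE was 3 with 50% coverage and 2 with the wider 50% of peaks. Bases in peaks over the window numbered 8076 in hPSC, 8090 in DE, and then 5532 for aNE and 5788 for pNE. By day 4 they were 6699, 6674 and 5559 after aNE, and 7103, 5500 and 8349 after pNE. The 2 earliest lists were thus higher than all later ones except pNE_H. As a share of each list's own bases, BMP4 stood at 0.770 of its hPSC level in aNE, 0.705 in pNE and 0.679 in pNE_H, whose list is the longest.

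Of the 6 BMP4 regions closed in aNE and the 6 closed in pNE, 4 were shared. The widest region lost after DE was chr14:53969047-53969784, 738 bp and 12.2 kb from the gene, with 699 bp of peaks in hPSC, 396 in DE and none afterwards. The other two were chr14:53982592-53982902 (311 bp in hPSC, 129 in DE) and the intragenic chr14:53951893-53952058 (156 and 120 bp). On the other side of the gene, chr14:53929662-53930523 had 719 bp of peaks in hPSC, 678 in DE and 213 in aNE, and none in pNE. It then had 432, 358 and 457 bp in the aNE-derived lists and 407 bp in pNE_H alone of the pNE-derived lists. Its neighbour chr14:53943114-53944112 was also open in aNE (128 bp) and closed in pNE, but on day 4 had 267 bp in aNE_T, 999 in pNE_T and 209 in pNE_M. Further out, chr14:53921169-53921404 was open in pNE (144 bp) and closed in aNE. These regions thus showed no common difference by route. The only region gained on day 2 in 1 of the groups, chr14:53973531-53973655 (125 bp), was open in aNE alone.

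BMP4 has 3 listed starts, and none was covered by a peak in hPSC. The start at 53953395 was missed narrowly, since hPSC peaks covered 215 of the 250 bases before it. It lay in the merged region chr14:53952984-53954894, open in all 10 lists. The start at 53953395 was covered in the 9 later lists and that at 53954488 in aNE_T, aNE_M, pNE_M and pNE_H. The start at 53955050, whose upstream sequence is printed above, was covered in pNE_T and pNE_H only, by the region chr14:53954973-53955265. Within 1 kb of the 3 starts together, peaks covered 684 bp in hPSC, 809 in DE, 1136 in aNE and 1489 in pNE. The day 4 values were 1792, 1869 and 1371 bp after aNE and 1456, 1274 and 2068 bp after pNE. Every later list thus had more covered bases near the BMP4 starts than hPSC.

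BMP7 had the largest window and the most regions, 62, of which 26 were open in hPSC and only 8 in all 10 lists (30.8% of the 26). It gained 11 regions in DE, the most of any member but in the largest window. Over all regions closed in hPSC, 25.5% were gained in DE. Bases in peaks over the BMP7 window went from 11321 in hPSC to 15117 in DE, then 10880 in aNE and 11521 in pNE. The day 4 lists held 14423, 13477 and 12225 bases after aNE and 13659, 12893 and 16939 after pNE. DE stood above all lists but pNE_H in bases. As a share of each list DE stood at 1.21 times hPSC, below aNE_T (1.24) and above the other lists. The region at the higher gene end, chr20:57265721-57267197, was open in all 10 lists with 1038 to 1471 bp of peaks. A total of 4 BMP7 regions were open in hPSC and DE alone, the widest being chr20:57290894-57291345 with 452 and 268 bp. The widest open in hPSC alone, chr20:57265304-57265466 (163 bp), and the widest closed in DE, chr20:57251986-57252474, lay inside the gene. The latter had 156 bp in hPSC and later 155 bp in aNE_T and 366 in pNE_M.

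A region 3.64 kb beyond BMP7, chr20:57270283-57270933, separated the routes after a common start. It held 159 bp of peaks in hPSC, 525 in DE, then 203 for aNE and 542 for pNE. It had none in any of the 3 aNE-derived day 4 lists and 651, 268 and 620 bp in the pNE-derived ones. The reverse pattern also occurred at BMP7: chr20:57301012-57301593 was open in hPSC (117 bp), DE (453) and aNE (246), closed in pNE, open in aNE_T (541), aNE_M (284) and aNE_H (223), and closed in all 3 pNE-derived lists. Whatever the earlier history, 1 of the 302 regions (background 0.633%), this one, was open in all 3 aNE-derived and no pNE-derived day 4 lists, and 7 (background 2.33%) had the reverse pattern.

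The antagonists LEFTY1 and LEFTY2 lie 47456 bp apart, so their windows share 11 regions. They are also near-identical copies, and how reads that match both were treated is not given in the sources used here, so peaks inside either gene are uncertain. LEFTY1 (chr1:225886282-225889146) had 22 regions, 13 open in hPSC, 12 of these still open in DE, 10 in aNE and 9 in pNE. The region over its higher end, chr1:225888550-225889572, was open in every list with 427 bp of peaks in hPSC, 674 in DE, 463 in aNE and 564 in pNE. The same region held 514, 771 and 878 bp in the day 4 lists after aNE and 501, 887 and 675 bp after pNE. Both ends considered, LEFTY1 thus had a peak in all lists.

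What LEFTY1 lost lay outside the gene. The region chr1:225890344-225890677, 1.20 kb beyond its higher end, had 334 bp of peaks in hPSC and 218 in DE and none later. The region chr1:225908820-225909144, between LEFTY1 and LEFTY2, had 122 and 325 bp and none later. The third, chr1:225855743-225855934 (173 and 132 bp), lay inside the neighbour TMEM63A. All 3 were closed in aNE and pNE alike. In the anterior route only, chr1:225842195-225843026 (193 bp in hPSC, 786 in DE) kept 371 bp in aNE, had none in pNE and was closed in all 6 day 4 lists. The single LEFTY1 region closed in DE, chr1:225866492-225867337 in TMEM63A, had 156 bp in hPSC and was open again in every later list but pNE_T, with 196 to 572 bp.

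LEFTY2 (chr1:225936603-225941220) differed from its neighbour at the gene ends. Within 1 kb of either end there were 0 bp of peaks in hPSC, 71 in DE and none in aNE or pNE, although an intragenic region, chr1:225939235-225940290, was open in all 10 lists with 665 to 1056 bp. On day 4 a region inside the gene near its higher end, chr1:225940880-225941200, had 167 bp of peaks in aNE_M and 277 in aNE_H and none elsewhere. Of 16 hPSC-open regions in 26, 13 were open in DE, 12 in aNE and 11 in pNE. A pair of narrow regions, 113 and 124 bp, was open in hPSC alone, and chr1:225969654-225970152 was open in hPSC (136 bp) and aNE (499 bp) alone. The widest hPSC-only region was chr1:225970378-225970501. The widest day 2 gain, chr1:225958275-225958466, was open in aNE (170 bp) and later in pNE_H (109 bp).

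SMAD7 (chr18:48919853-48950965) had 42 regions, 26 of them open in hPSC, with 22 of these open in DE, 17 in aNE and 18 in pNE. Of the 26, 3 were open in hPSC alone, which with ID3 was the highest count of any member. The share over all hPSC-open regions was 11.4%. The widest of the 3 was chr18:48878515-48878837 with 323 bp. Close to it, chr18:48878964-48879481 held 497 bp in hPSC, 375 in DE, 440 in aNE and 204 in pNE and was closed in all 6 day 4 lists. A region on the other side of the gene, chr18:48983703-48984287, held 434 bp in hPSC, 554 in DE and 125 in aNE, and none in pNE or on day 4. The losses around SMAD7 were thus spread over days 1, 2 and 4. Its 5 gains on day 2 in pNE and not aNE were led in width by chr18:48893361-48893937, with 508 bp in pNE, 526 in aNE_M, 577 in aNE_H, 513 in pNE_M and 361 in pNE_H.

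No peak in any list covered the SMAD7 starts at 48950965 or 48949333, although wide regions open in all 10 lists flanked them on both sides, such as chr18:48951466-48953074 with 1392 to 1589 bp of peaks. The third start, at 48942807, was covered by chr18:48942533-48942922, which was open in the 3 pNE-derived day 4 lists alone. Peaks there measured 390 bp in pNE_T, 216 in pNE_M and 289 in pNE_H, and the other 7 lists had none. The printed SMAD7 sequence shows the part of this region that lies before the start.

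The ID genes kept their starts open throughout. A peak covered the listed start of ID1, ID2, ID3 and ID4 in all 10 lists. Around the ID4 start the region chr6:19836807-19839265 held 2364 bp (pNE_M) to 2430 bp (hPSC) of peaks, so its width hardly varied between lists. At ID2, peaks within 1 kb of the start covered 509 bp (DE) to 683 bp (aNE and aNE_H), and at ID3 382 bp (pNE_H) to 545 bp (aNE_T). At ID1 they covered 793 bp in hPSC and 750 in DE, and 1097 (aNE_H) to 1445 (pNE_H) bp in the 8 later lists, so the ID1 start was covered more widely in every list after DE than in either earlier one.

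Just downstream of ID1 the picture reversed. The region chr20:31606513-31607149, 3 bp beyond the gene, had 583 bp of peaks in hPSC and 548 in DE, none in aNE or pNE, and later 150 bp in aNE_M, 267 in pNE_M and 146 in pNE_H. Next to it, chr20:31607320-31607694 was open in the 3 pNE-derived day 4 lists alone, with 290 bp in pNE_T, 220 in pNE_M and 371 in pNE_H. Both lie within 1 kb of an end of the microRNA gene MIR3193, so they cannot be assigned to ID1 by position. Of the 22 hPSC-open regions of ID1, 21 were open in DE, 14 in aNE and 16 in pNE. The 1 closed in DE, chr20:31637715-31638124, and the 1 gained on day 2 in pNE alone, chr20:31638375-31638703, both lay at COX4I2, a neighbouring gene. The first had 282 bp in hPSC, 294 in pNE, 306 in aNE_H and 187 in pNE_H, and the second 128 bp in pNE, 212 in aNE_M and 329 in aNE_H.

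ID2 and ID4 had the fewest closures on day 2. ID2 had 10 hPSC-open regions in 29 and ID4 had 6 in 17, and in each gene 1 of them was closed in DE and 1 in each of aNE and pNE. With 10 and 6 regions these shares have little precision. The regions closed in DE were chr2:8732763-8732941 of ID2, open again in aNE_H only, and chr6:19869590-19869823 of ID4, open again in pNE_M only. At ID2, 5 regions were gained on day 2 in pNE and not in aNE. The widest, chr2:8653557-8654396, held 585 bp of peaks in pNE, 414, 722 and 636 bp in the day 4 lists after aNE, and 573, 409 and 840 bp in those after pNE. It was closed in hPSC, DE and aNE and open in all 6 day 4 lists, as was the NODAL region above. A second ID2 region, chr2:8703644-8704246, was open only in pNE_T (601 bp), pNE_M (411 bp) and pNE_H (572 bp).

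At ID4 the posterior route had more bases in peaks on day 4 than the anterior one. Bases in peaks over its window numbered 4863 in hPSC, 4923 in DE, 4550 in aNE and 5092 in pNE. They came to 5175, 5836 and 5188 on day 4 after aNE and to 7003, 6241 and 9662 after pNE. The 3 pNE-derived lists were thus above all 7 others. As a share of each list's bases they stood at 1.37, 1.29 and 1.30 times hPSC, and the aNE-derived lists at 1.04, 1.12 and 1.08, the same order of the routes. A pair of wide regions was open in the pNE-derived day 4 lists alone. The first, chr6:19811403-19812260, 25.1 kb from ID4, held 803 bp in pNE_T, 635 in pNE_M and 762 in pNE_H. The second, chr6:19830946-19831775, 5.59 kb from the gene, held 401, 153 and 830 bp. The single ID4 gain on day 2 in pNE and not aNE, chr6:19852980-19853259, had 187 bp in pNE and 173 to 270 bp in every day 4 list but aNE_T.

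ID3 had the highest count of regions closed in DE, though not under every setting. Of its 20 hPSC-open regions, in 38, 6 (30.0%; background 21.8%) were closed in DE, 8 in aNE and 7 in pNE, and 10 were open in all 10 lists. With the wider 50% of peaks 2 were closed in DE, as for ID1, BMP4 and BMP7, with equal list length 5, as for BMP7, and with 10 kb windows none. Of the 6, 3 were hPSC-only regions of 126 to 175 bp, the widest being chr1:23574426-23574600. The widest of the others, chr1:23591413-23591970, held 303 bp of peaks in hPSC, none in DE, aNE or pNE, and later 186 bp in aNE_T, 456 in aNE_M, 510 in pNE_M and 456 in pNE_H, so it closed and opened again. In the opposite sense, chr1:23592533-23592869 was closed in hPSC and DE and open with 115 to 323 bp in all 8 later lists. The widest gain on day 2 in pNE and not aNE, chr1:23589533-23589813, had 261 bp in pNE, 271 in aNE_M and 280 in aNE_H.

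**Figure D3:**
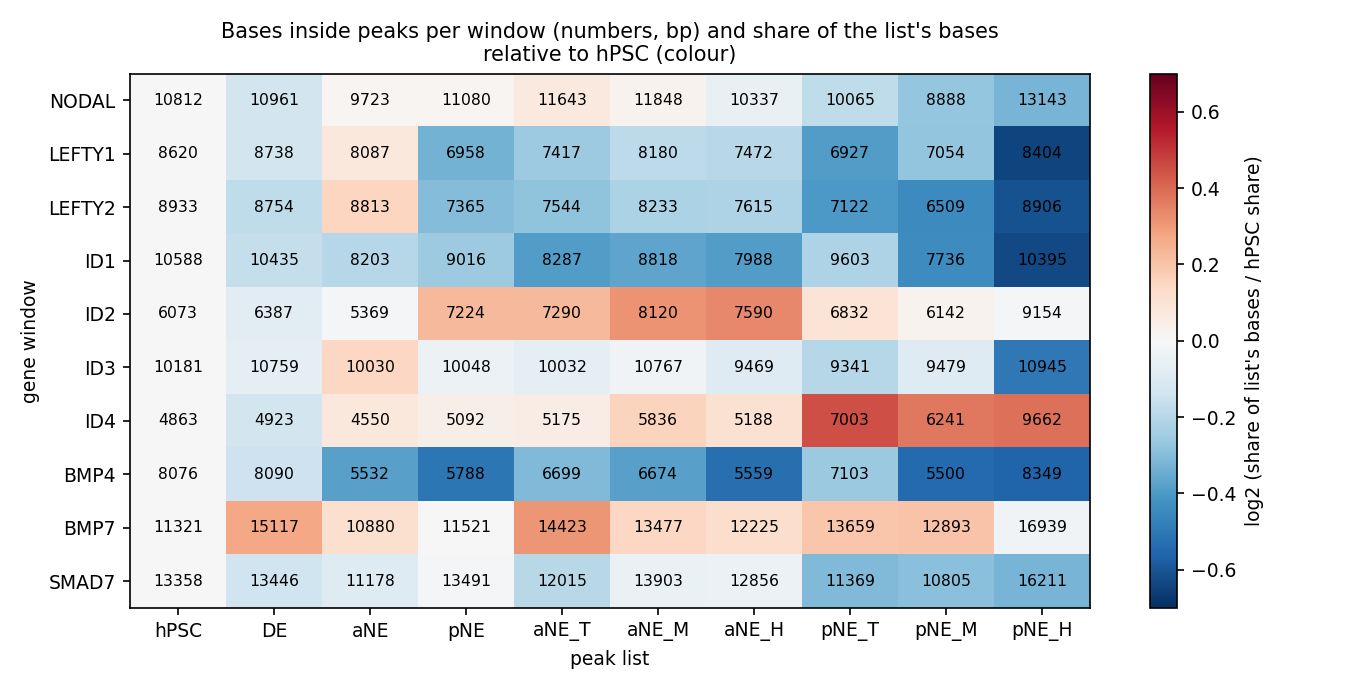
Bases inside peaks for each gene window (rows) and peak list (columns) as numbers, with colour giving the log2 ratio of the window's share of the list's bases to its share in hPSC. ID4 is above hPSC in the 3 pNE-derived lists (1.37, 1.29 and 1.30 times). Below hPSC in every later list are BMP4 (0.679 to 0.905 times), ID1 (0.645 to 0.890) and SMAD7 (0.797 to 0.994).

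Gains over all members were close to those of the genome. Of the 137 regions closed in hPSC, 37 (exact 95% interval 19.8 to 35.3%) were open in DE, with a background of 25.5%. Of the 100 regions closed in both hPSC and DE, 19 (interval 11.8 to 28.1%) were open on day 2 in pNE and not aNE (background 15.4%), 3 in aNE and not pNE (background 2.88%), and 4 in both (background 2.76%). More gains in pNE than in aNE on day 2 were therefore seen here as in all regions, and the pNE list held 206811 peaks against the 167792 of aNE. Of the 19, 3 were open in all 6 day 4 lists (background 1.40% of the 100): the regions of NODAL and ID2 given above and chr20:57122623-57123408 of BMP7, which held 313 bp in pNE and 154 to 786 bp on day 4.

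On day 4, 74 regions were open for the first time. Of these, 47 (63.5%, interval 51.5 to 74.4; background 69.7%) were open in pNE-derived lists only and 19 (25.7%, interval 16.2 to 37.2; background 15.0%) in aNE-derived lists only. The interval of the second share lay above its background. Those 19 regions were narrow, with a median of 173 bp, as were the 47, with 182 bp. Of the 19, 7 were open in aNE_M alone, 4 in aNE_T alone, 3 in aNE_H alone and 5 in aNE_M and aNE_H. This share is 1 of many given here and was not recomputed under the alternative settings. Of the 74, 22 were open in pNE_H alone (29.7%, background 30.3%). Requiring all 3 lists of one route and none of the other left 6 regions for the posterior route (8.11%, interval 3.03 to 16.8; background 4.32%) and 0 for the anterior one, which allows a share of up to 4.86% (background 0.165%). The 6 regions were those of ID1, ID2, SMAD7, both of ID4, and chr20:57210080-57210325 inside BMP7, with 225, 115 and 226 bp. No region was first open on day 4 in all 6 lists (background 0.271%).

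**Figure D4:**
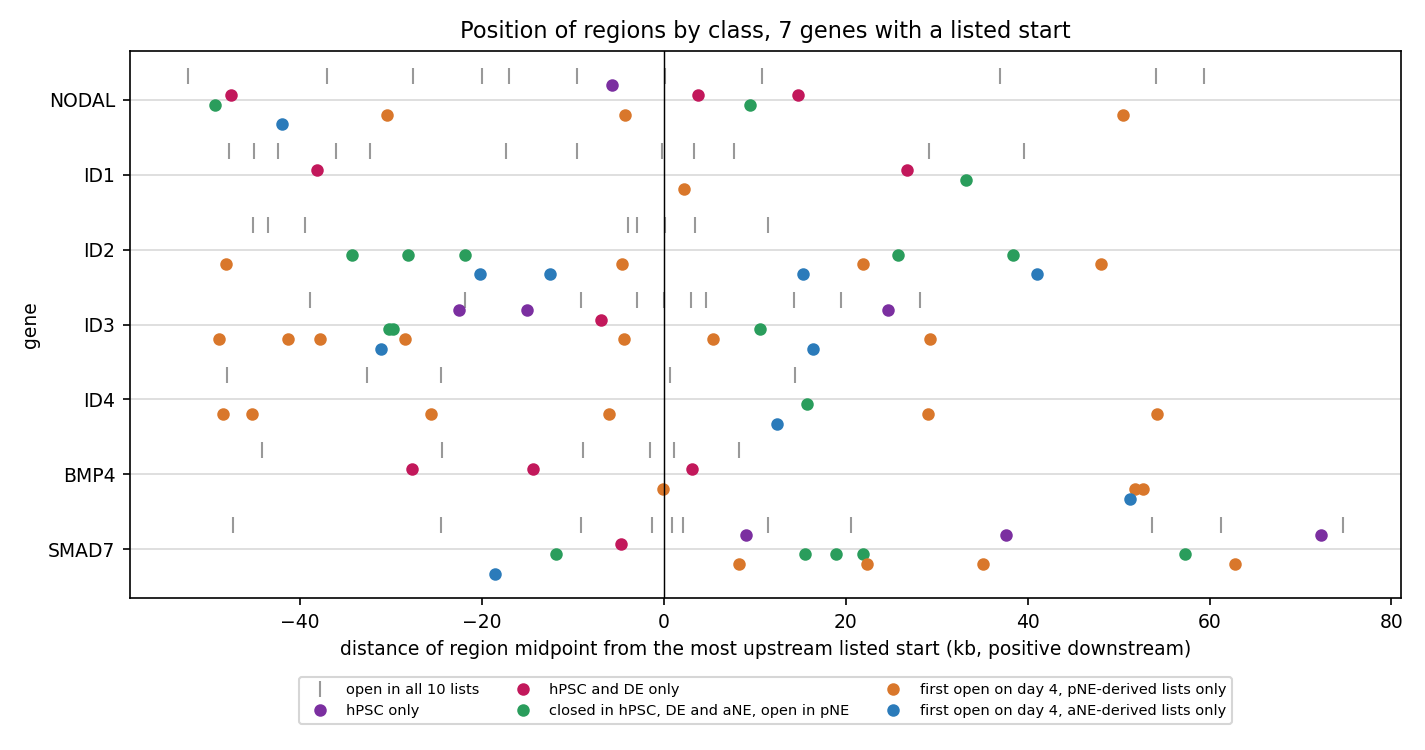
Distance in kb of each region's midpoint from the most upstream listed start, positive downstream, for the 7 genes with a listed start; colour gives the class of the region, and regions of other classes are not drawn. Regions open in hPSC and DE only and regions first open on day 4 lie mostly away from the start, and regions open in all 10 lists lie both at the start and along the whole window.

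Of the 22 regions within 1 kb of an end of a member, 14 were open in all 10 lists, where the background over regions near the ends of protein-coding genes was 56.3%. Openness at gene ends was thus near that of other genes. With windows of 10 kb instead of 50 kb on each side, 6 of 75 hPSC-open regions were closed in DE and 17 of them (22.7%) in aNE. In the full windows 49 regions lay within 1 kb of an end of another gene.

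The letters of known SMAD and partner elements were looked for on both strands of the 250 bases before the 11 listed starts of the 7 members with an entry, and of 35116 promoters in the same table. The palindromic SMAD element GTCTAGAC was in none of the 11 and in 0.182% of all promoters. The GC-rich SMAD1 and SMAD5 element GGCGCC was in 1, before the BMP4 start at 53955050, and in 16.4% of all promoters. The short SMAD element CAGACA was also in 1, before the BMP4 start at 53953395, and in 13.6% of all. AATCCACA, the FOXH1 element, and ATGCAAAT, the octamer of POU factors, were in none of the 11 and in 0.709% and 1.63% of all. The shorter CAGAC, contained in CAGACA, was in 7 of 11 starts and in 13345 of the 35116 promoters.

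TATAA on the gene's strand, beginning 35 to 27 bases before the start, was at 5 of the 11 member starts and in 3.42% of all promoters. These starts, 1 each in 5 genes, were NODAL, ID3 and ID4 at -29, ID1 at -31 and the SMAD7 start at 48949333 at -35, counted from the start. TATAA and CAGAC were chosen after the sequences had been seen, and the window of positions was not part of the planned search. Its outer limit coincides with the SMAD7 match at -35. The 5 of 11 is therefore a description only, and a match describes letters and not a bound site. The 5 starts with TATAA included 4 covered by a peak in every list and 1, that of SMAD7, covered in none. The ID2 start, also covered in every list, had no TATAA in its 250 bases.

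Other genes of both arms were described with the same windows. Over the 10 members the median share of hPSC-open regions closed in DE was 11.3% (range 0 to 30.0). It was 20.0% over 19 other NODAL and activin genes, 22.4% over 20 other BMP genes and 18.2% over 18229 protein-coding genes with at least 5 hPSC-open regions. The members' median was thus lowest in DE. In aNE the 4 medians were 34.0%, 38.9%, 37.0% and 33.3%, and in pNE 31.0%, 36.8%, 32.4% and 31.6%, so on day 2 the members lay near the median gene. CFC1, a co-receptor with near-identical copies, had no region.

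Single genes of the pathway spread widely around these medians. GDF3, a ligand of the NODAL arm expressed in pluripotent cells, lost 33.3% of 12 hPSC-open regions in DE and 66.7% in aNE. CRIPTO, the NODAL co-receptor, lost 20.0% of 20 in DE, 55.0% in aNE and 50.0% in pNE. CER1, a secreted NODAL antagonist, lost none of 5, and FOXH1, the SMAD partner, lost 4.17% of 24 in DE and 8.33% in aNE. In the BMP arm the receptor gene BMPR2 lost 35.7% of 28 in DE, and GATA3, a transcription factor of non-neural ectoderm, lost 38.1% of 21 in DE and 23.8% in aNE. The members ranged from BMP4 (0 of 15) to ID3 (6 of 20) in DE, which lies inside the range of both lists.

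**Figure D5:**
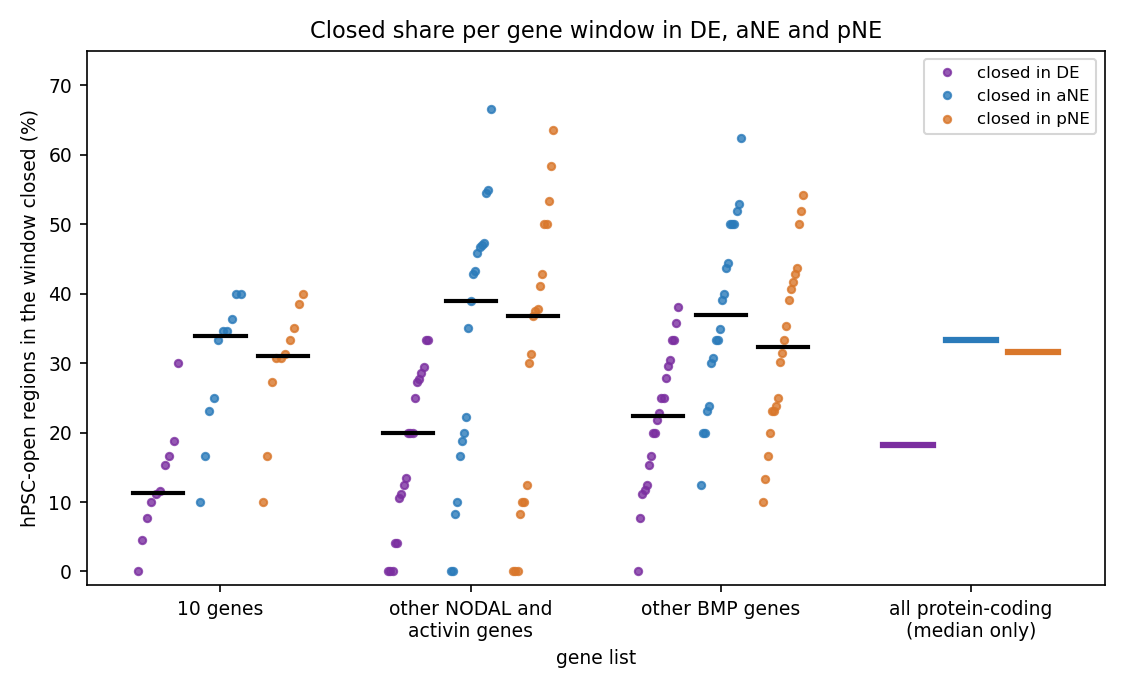
Share, in percent, of each gene window's hPSC-open regions that had no peak in DE, aNE and pNE, for the 10 members, the other NODAL and activin genes and the other BMP genes; points are genes and bars are medians. In DE the medians are 11.3%, 20.0% and 22.4%, and the points of the 3 lists overlap.

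The genes whose bases in peaks, as a share of each list's total, followed those of a member most closely over the 10 lists were sought for 4 members among 18455 to 18460 protein-coding genes at least 1 Mb away. For NODAL the nearest was PRORP (Pearson r = 0.979), followed by PYURF and PIGY (0.969 each, with 1 window between them). For LEFTY2 they were SCNN1A (0.994), TNFRSF1A (0.969) and NUB1 (0.967), and for ID1 they were SLC43A2 (0.966), ATP6V1H (0.962) and ZNF19 (0.959). For BMP7 the closest values were lower, with 0.896 for OR52L1, 0.895 for OR56A5 and 0.881 for CDC26. These are the highest of many correlations over 10 points that share list length, and they describe likeness only.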

How the data were processed

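OmniATAC-seq was measured in 30 H1 libraries, 3 per group, and summarised in 10 deposited peak lists, 1 per group. The authors deposited start and end positions (another kind of value than a count or score) with no header, height or value per library, as the lists' 3 columns show. The submitters' processing notes name FastQC, Bowtie2, MACS2, bedtools, featureCounts, edgeR, deepTools and hg38, without their roles. How the 3 replicates were combined and which threshold was used are not given in the sources used here, and both would move every overlap. Lists were tied to groups by the population in their labels.

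Overlapping peaks (at least 1 bp) of the 10 lists were joined into regions on chromosomes 1 to 22, X and Y, with Python 3.11.15, numpy 2.4.6 and pandas 2.3.3. Open calls were checked on simulated lists. Gene positions and starts came from RefSeq tables of GRCh38.p14, and starts were listed for 7 of 10 members. For LEFTY1, LEFTY2 and BMP7 both gene ends were used. Shares have exact (Clopper-Pearson) 95% intervals from scipy 1.17.1. With 1 list per group no test was possible.

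The members, gene lists and motifs were chosen with earlier results of these data known. Every member is named. The regions named were, per member, the widest open in hPSC alone, the widest closed in DE, the widest gained on day 2 in 1 of aNE and pNE, and the widest open in all 3 day 4 lists of 1 route only. Other regions, including those open in hPSC and DE alone, were chosen after their values were seen. Alternatives were the coverage that makes a list open, list length, peak width, window size, merging, regions near other genes and the list pNE_H.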

Additional observations from a re-analysis of the deposited data

How the results depend on the processing

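Most results kept their direction under the alternatives: of 137 values for the summary results, 113 stayed within the spread set for them, 23 moved and 1 reversed. The share closed in DE was 23.8% where peaks had to cover 50% of a region and 8.0% with 10 kb on each side. The share closed in aNE was 42.9% with 50% coverage, 23.5% with all lists at the length of the shortest, 21.8% with the wider 50% of peaks and 22.7% with 10 kb. In pNE it was 45.2% with 50% coverage and 23.8% with the wider 50%. The difference between members and all regions stayed negative for DE (-13.8 to -4.58 points; -8.43 as reported), and for aNE it was -16.3 points with the wider 50% and -16.2 with 10 kb, against -6.74. The share open in hPSC and DE alone was 5.88% at equal list length and 4.95% with the wider 50%, where its difference from all regions reversed from 3.47 to -1.68 points; the cause was not tested. Regions gained on day 2 in aNE only numbered 6, 6, 0 and 6 with 50% coverage, equal list length, 10 kb and no merging, and those gained in both 9, 8 and 0 under the first 3 of these. Those gained in pNE only numbered 5 with 10 kb, a smaller window. Counting regions of any earlier history, 1 was open in all 3 aNE-derived and no pNE-derived list. With 50% coverage or the wider 50%, 1 region was first open in all 6 day 4 lists. The alternatives with any earlier history, and without the list pNE_H, were chosen after seeing the data. For single members 143 of 240 values stayed and 97 moved; the cause was not tested. No paired analysis was possible because the lists hold no value per library, and leaving out each replicate could not be run for the same reason. Depth is unknown, so a region without a peak may be open below the authors' threshold.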
